A study of Mus musculus with 6 samples.

Results

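The genes described here are 10 late granule and maturation genes of the neutrophil: Ltf, Camp, Ngp, Lcn2, Mmp8, Mmp9, S100a8, S100a9, Cxcr2 and Retnlg. They were chosen by symbol, and each symbol matched 1 row of a count table of 26027 genes. The table holds 6 RNA-seq libraries of Lin-/cKit+/eYFP+ bone marrow cells, that is, cells without surface antigens of mature lineages, with the receptor Kit, and with a fluorescent reporter that marks Cre activity. The 3 Srsf2 P95H/+ libraries came from hScl-CreERT R26eYFP Srsf2 P95H/+ mice, and the 3 wild-type libraries from hScl-CreERT R26eYFP Srsf2 +/+ mice. All mice were on C57BL/6 and had received tamoxifen, so the controls carry the same inducible Cre, the same reporter and the same drug exposure. In P95H/+ cells 1 allele of the splicing factor gene Srsf2 encodes the P95H substitution, and counts per gene do not show that base change. P95H/+ replicates 1 and 2 were female and replicate 3 was male, all aged 32 weeks. Wild-type replicate 1 was a female of 54 weeks, and wild-type replicates 2 and 3 were males of 32 weeks. The labels call the sorted cells immature and multipotent, and Cre activity in hScl-CreERT mice comes from an Scl element active in stem and progenitor cells. They do not say whether the libraries stand for separate mice, and p-values measure the spread between these libraries.

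Neutrophils fill their granules in sequence as they mature. Promyelocytes make the primary granule enzymes such as myeloperoxidase and elastase, myelocytes make the specific granule proteins such as lactoferrin and cathelicidin, and later stages make gelatinase and the receptors with which the cell leaves the marrow. Kit is known as a receptor of stem and progenitor cells that is lost before these late steps. C/EBP epsilon and other C/EBP factors are known regulators of specific granule genes in the mouse.

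The libraries held 10747941 to 22614408 counts in P95H/+ and 16842751 to 23010510 in wild type, with P95H/+ replicate 3 the shallowest. Replicate 3 of both genotypes stood apart by base composition. Genes with at most 40% GC in their longest transcript lay at a median log2 difference of -1.09 from the 6-library median in P95H/+ replicate 3. In wild-type replicate 3 it was -0.69, against 0.02 to 0.10 in P95H/+ replicates 1 and 2 and 0.02 to 0.19 in wild-type replicates 1 and 2. The 10 late granule and maturation genes have transcripts of 43.4% to 55.2% GC. Over the 10393 tested genes in that range the median difference was -0.08 in P95H/+ replicate 3 and between -0.03 and 0.03 in the other 5 libraries. Genes above 55% GC, a class that includes Mmp9 at 55.2%, lay at a median of 0.55 in P95H/+ replicate 3. The median was 0.40 in wild-type replicate 3, against -0.12 to -0.02 in the other 4 libraries. Kit, the receptor on which the cells were sorted, had 476, 531 and 548 CPM (counts scaled to a library total of 1000000) in P95H/+, against 521, 482 and 532 in wild type.

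The sequence before the transcription start is given for 4 genes with a wide range, Ltf, Ngp, Mmp8 and Retnlg, and for S100a8, which varied least. The stretches come from RefSeq (GRCm38.p6), run 5′ to 3′ on the strand of the gene and end before the first base that GENCODE M21 assigns to the gene. They lie at chr9:111019042-111019270 (plus strand), chr9:110419558-110419746 (plus), chr9:7558179-7558428 (plus), chr16:48872358-48872607 (plus) and chr3:90668821-90668977 (plus). Capitals mark matches to the C/EBP pattern TTNNGCAA or its reverse complement TTGCNNAA.
Ltf: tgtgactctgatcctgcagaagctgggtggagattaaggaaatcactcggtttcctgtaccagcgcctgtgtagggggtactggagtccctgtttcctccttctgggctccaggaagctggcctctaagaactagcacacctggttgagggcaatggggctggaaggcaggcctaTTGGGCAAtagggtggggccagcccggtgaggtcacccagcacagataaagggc
Ngp: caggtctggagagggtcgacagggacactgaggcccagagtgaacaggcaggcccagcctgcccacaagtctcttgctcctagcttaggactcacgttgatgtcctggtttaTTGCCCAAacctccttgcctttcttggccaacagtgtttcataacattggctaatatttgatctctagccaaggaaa
Mmp8: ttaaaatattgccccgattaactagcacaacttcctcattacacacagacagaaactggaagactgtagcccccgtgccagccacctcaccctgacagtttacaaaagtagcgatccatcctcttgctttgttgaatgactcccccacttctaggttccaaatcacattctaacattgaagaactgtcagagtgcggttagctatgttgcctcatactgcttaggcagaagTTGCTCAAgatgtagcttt
Retnlg: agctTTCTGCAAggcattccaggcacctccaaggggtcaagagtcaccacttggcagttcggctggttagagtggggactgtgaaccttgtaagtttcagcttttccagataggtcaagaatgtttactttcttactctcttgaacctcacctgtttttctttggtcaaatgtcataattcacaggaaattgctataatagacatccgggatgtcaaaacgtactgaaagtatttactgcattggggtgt
S100a8: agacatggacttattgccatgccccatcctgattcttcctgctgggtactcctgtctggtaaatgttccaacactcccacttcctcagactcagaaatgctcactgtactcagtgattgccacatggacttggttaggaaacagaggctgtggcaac
RefSeq gave a promoter for 9 of the 10 genes, all but Mmp9. In the 250 bases before the RefSeq start, 6 of these 9 (Ltf, Ngp, Lcn2, Mmp8, S100a9 and Retnlg) held the C/EBP pattern on either strand, as did 9.56% of the 32851 promoters in the RefSeq table. Of the genes with the pattern, S100a9 varied by a ratio of 2.76 between the highest and the lowest library, and the others by 8.01 or more. Of those without it, Camp varied by 7.71, Cxcr2 by 2.70 and S100a8 by 2.04. Whether the pattern bears on the range was not tested. The matches began 75 bases before the start in Ltf, 138 and 11 in Ngp, 19 in Mmp8, 216 in Lcn2, 236 in S100a9 and 246 in Retnlg. The nearer Ngp match lies past the GENCODE start and outside the stretch printed. The whole Lcn2 window lies past the GENCODE start, within the annotated gene, and so do all its matches. The PU.1 pattern GAGGAAG (reverse CTTCCTC) was in 3 of 9 (Lcn2, Mmp8 and S100a8) and in 10.6% of all promoters. The RUNX pattern TGTGGT (reverse ACCACA) was in S100a9 and in 14% of all promoters, and TATAAA, sought on the gene's strand only, was in S100a8 and in 7.59%. The TATAAA match of S100a8 lies past the GENCODE start and outside the stretch printed. No match of 1 pattern overlapped a match of another in these 9 windows, and a match is a description of the letters and not evidence of binding.

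The late granule and maturation genes were highest in 1 library of each genotype, P95H/+ replicate 3 and wild-type replicate 1. These were the 2 highest libraries for 9 of the 10 genes, and for 4.35% of the 17144 genes tested. S100a8 was the exception. For Camp and Cxcr2 the order rests on a near tie. Wild-type replicate 1 held 47.24 CPM of Camp, against 47.08 in wild-type replicate 3. It held 15.56 CPM of Cxcr2, against 15.39 in P95H/+ replicate 2. P95H/+ replicate 3 was the highest library for 8 genes, and wild-type replicate 1 for S100a8 and S100a9, for S100a8 nearly level with P95H/+ replicate 1. Together the 10 genes took 0.0477%, 0.0355% and 0.176% of all counts in P95H/+ replicates 1, 2 and 3, and 0.0984%, 0.0312% and 0.0490% in wild-type replicates 1, 2 and 3. The widest 95% Wilson interval of these shares, which covers counting error only, was 0.174% to 0.179% in P95H/+ replicate 3. The intervals of P95H/+ replicate 1 and wild-type replicate 3 overlap. In bulk samples fewer cells of a type and less RNA per cell cannot be told apart.

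**Figure D1:**
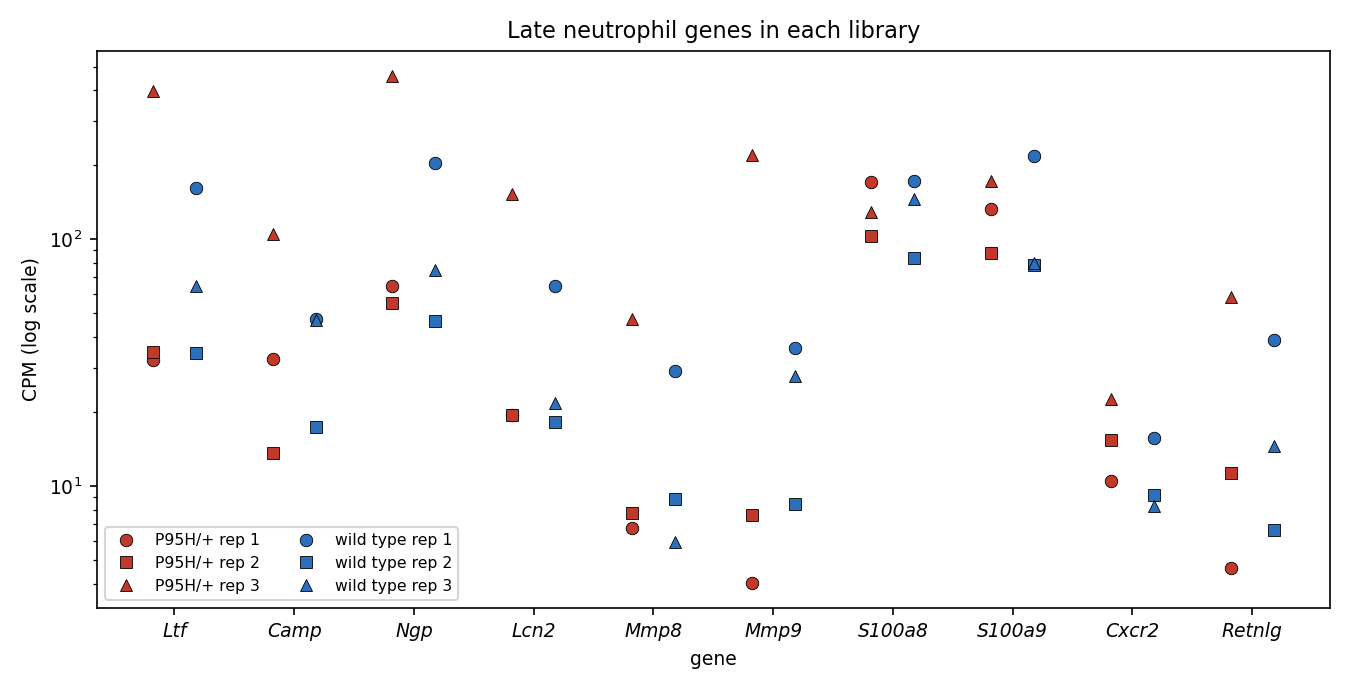
Level of each of the 10 genes in every library, in CPM on a log axis, with P95H/+ libraries (red) left of wild-type libraries (blue) and the marker shape giving the replicate number. P95H/+ replicate 3 and wild-type replicate 1 are the 2 highest libraries for all genes but S100a8. For Camp and Cxcr2 the next library is nearly level with wild-type replicate 1. The genotypes overlap for each gene.

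Among the specific granule proteins, Ltf encodes lactoferrin, which binds iron (ENSMUSG00000032496, mm10 chromosome 9, 111019271 to 111042767, plus strand). It stood at 32.5, 34.9 and 399 CPM in P95H/+ replicates 1, 2 and 3, against 161, 34.5 and 64.3 CPM in wild-type replicates 1, 2 and 3. The means were 155 ± 211 CPM in P95H/+, against 86.6 ± 66.1 in wild type (mean ± SD, n = 3 each), and the genotypes overlap, since both lower P95H/+ libraries match wild-type replicate 2 closely. The log2 fold change of P95H/+ over wild type was 0.96 (SE 1.04), with an adjusted p of 1 in edgeR's quasi-likelihood test.

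Ngp encodes neutrophilic granule protein, a relative of the cathelicidins (ENSMUSG00000032484, chromosome 9, 110419747 to 110423012, plus strand). Ngp stood at 64.3, 55.1 and 457 CPM in P95H/+, against 203, 46.5 and 75.2 in wild type, in replicate order. The high P95H/+ library lay above every wild-type library, and the other P95H/+ libraries lay among the 2 lower wild-type libraries. Ngp had a log2 fold change of 0.94 (SE 0.91), adjusted p 1 by edgeR.

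Camp encodes the mouse cathelicidin, the precursor of an antimicrobial peptide (ENSMUSG00000038357, chromosome 9, 109847379 to 109849617, minus strand). Its levels were 32.6, 13.6 and 105 CPM in P95H/+, against 47.2, 17.4 and 47.1 in wild type. Here wild-type replicate 3 equalled wild-type replicate 1 nearly, so that Camp followed the shared order less closely than Ltf and Ngp, although the 2 highest libraries were the same. The log2 fold change was 0.54 (SE 0.73), adjusted p 1 by edgeR. Camp, Ngp and Ltf lie on the same stretch of chromosome 9, with 570 kb between Camp and Ngp and 596 kb between Ngp and Ltf.

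Lcn2 encodes lipocalin 2, which binds bacterial siderophores (ENSMUSG00000026822, chromosome 2, 32384633 to 32388252, minus strand). It was at 19.3, 19.3 and 152 CPM in P95H/+, against 64.4, 18.1 and 21.7 in wild type. The 4 lower libraries lay within 18.1 to 21.7 CPM, and the genotypes overlap. Lcn2 had a log2 fold change of 0.98 (SE 0.91), adjusted p 1 by edgeR. Counts of Lcn2 relative to those of Ngp stayed between 0.300 and 0.350 in P95H/+ and between 0.288 and 0.389 in wild type. By contrast, Camp over Ngp ran from 0.229 to 0.507 in P95H/+ and from 0.233 to 0.626 in wild type.

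The granule proteases followed the same order. Mmp8 encodes the neutrophil collagenase of specific granules (ENSMUSG00000005800, chromosome 9, 7558456 to 7568485, plus strand) and stood at 6.78, 7.78 and 47.5 CPM in P95H/+, against 29.2, 8.86 and 5.94 in wild type. Its log2 fold change was 0.58 (SE 0.90), adjusted p 1 by edgeR. For Mmp8 the 4 lower libraries lay under 9 CPM and the high library of each genotype lay above 29 CPM.

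Mmp9 encodes gelatinase B of the gelatinase granules, which form after the specific granules (ENSMUSG00000017737, chromosome 2, 164940780 to 164955850, plus strand). It had the widest range of the 10 genes, 4.06, 7.65 and 218 CPM in P95H/+, against 36.2, 8.43 and 27.8 in wild type, a ratio of 53.8 between the highest and the lowest library. The means were 76.7 ± 123 CPM in P95H/+, against 24.2 ± 14.3 in wild type (mean ± SD, n = 3 each), and P95H/+ held both the highest and the 2 lowest libraries. The log2 fold change was 1.78 (SE 1.39), adjusted p 1 by edgeR. Mmp8 counts were 1.67, 1.02 and 0.218 of the Mmp9 counts in P95H/+ and 0.807, 1.05 and 0.214 in wild type, so the replicate 3 libraries held the least Mmp8 per Mmp9 in both genotypes. Mmp8 transcripts have 43.4% GC and Mmp9 transcripts 55.2%, the lowest and the highest of the 10 genes, and the part of base composition in this ratio was not tested.

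S100a8 and S100a9 encode the subunits of calprotectin, a calcium and zinc binding protein of the neutrophil cytosol. They are neighbours on chromosome 3, S100a8 at 90668978 to 90670035 on the plus strand (ENSMUSG00000056054) and S100a9 at 90692632 to 90695721 on the minus strand (ENSMUSG00000056071). S100a8 stood at 171, 102 and 129 CPM in P95H/+, against 171, 84.0 and 146 in wild type. It varied by a ratio of 2.04 between the highest and the lowest library, the least of the 10 genes, and P95H/+ replicate 3 was not among its 3 highest libraries. S100a9 stood at 132, 87.7 and 173 CPM in P95H/+, against 217, 78.7 and 79.6 in wild type, and P95H/+ replicate 3 and wild-type replicate 1 were its highest libraries. The log2 fold changes were 0.09 (SE 0.32) for S100a8 and 0.15 (SE 0.46) for S100a9, with adjusted p of 1 each by edgeR. Their ratio therefore turned between libraries: S100a8 counts were 1.29, 1.17 and 0.746 of S100a9 counts in P95H/+ and 0.788, 1.07 and 1.83 in wild type. S100a9 exceeded S100a8 in the libraries where the granule genes were highest, P95H/+ replicate 3 and wild-type replicate 1.

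Cxcr2 encodes the chemokine receptor that draws mature neutrophils out of the marrow (ENSMUSG00000026180, chromosome 1, 74153989 to 74161246, plus strand). It was at 10.5, 15.4 and 22.4 CPM in P95H/+, against 15.6, 9.19 and 8.31 in wild type. P95H/+ replicate 3 was highest, and P95H/+ replicate 2 lay just under wild-type replicate 1, so the overlap of the genotypes rests on 1 wild-type library. The log2 fold change of 0.62 (SE 0.38) had the smallest unadjusted p of the 10 genes, 0.141, and an adjusted p of 1 by edgeR. Retnlg encodes resistin-like gamma, a protein secreted by granulocytes (ENSMUSG00000022651, chromosome 16, 48872621 to 48874496, plus strand), and stood at 4.66, 11.3 and 58.2 CPM in P95H/+, against 38.9, 6.63 and 14.6 in wild type. Its log2 fold change was 0.40 (SE 0.97), adjusted p 1 by edgeR. All 10 genes are protein coding, and GENCODE M21 lists no other gene that overlaps any of them.

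Per kilobase of exon, S100a9 had the highest mean of the 10 genes, at 250.4 ± 81.4 CPM per kb in P95H/+ and 239.9 ± 153 CPM per kb in wild type (SD, n = 3 each). S100a8 followed at 193 ± 49.5 CPM per kb in P95H/+, against 193 ± 64.7 in wild type, and Ngp at 157 ± 188 in P95H/+, against 88.5 ± 68.1 in wild type. In this order the first 3 do not differ beyond their spread. Cxcr2 had the lowest mean, at 5.28 ± 1.97 CPM per kb in P95H/+ and 3.62 ± 1.30 CPM per kb in wild type, with Mmp8 next at 8.54 ± 9.59 in P95H/+, against 6.05 ± 5.24 in wild type. Cxcr2 was the lowest gene in P95H/+ replicate 3 and wild-type replicate 1 only, while Mmp9 was lowest in P95H/+ replicates 1 and 2 and wild-type replicate 2, and Mmp8 in wild-type replicate 3. In P95H/+ replicate 3 alone Ngp, at 374 CPM per kb, stood above S100a9 at 331 and S100a8 at 186, and in wild-type replicate 1 S100a9 at 416 and S100a8 at 247 stood above Ngp at 166.

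The comparison of P95H/+ with wild type asks whether cells with 1 mutant Srsf2 allele hold more or less of these transcripts. None of the 10 genes passed edgeR's two-sided quasi-likelihood test with Benjamini-Hochberg adjustment at 0.05 over all genes, against 0 of 17144 genes tested, a background of 0%. At an unadjusted p under 0.05 the counts were 0 of the 10 genes and 361 of 17144 (2.11%). DESeq2 called 0 of the 10 genes and 7 genes in all (0.0269%), and limma voom called 0 and 0 (0%). DESeq2 gave no p-value for Lcn2 and Mmp9, so it could not call these genes. The log2 fold changes were above 0 for 10 of 10 genes, with a median of 0.60, where 53.1% of all tested genes were above 0 and the median was 0.02. None of the 10 genes had genotypes that did not overlap, against 7.84% of tested genes. With the replicate number as a block 0 of the 10 genes and 1 gene in all (0.00583%) passed, and the fold changes shrank to 0.16 for Ltf, 0.43 for Ngp and 0.03 for Mmp9. Within a genotype the SD of log2(CPM + 0.1) had a median of 1.39 over the 10 genes and 0.38 over all tested genes.

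The direction of the difference rests on P95H/+ replicate 3. Without that library 8 of the 10 log2 fold changes were below 0, with a median of -0.80, from -1.99 for Mmp9 to 0.28 for Cxcr2. Mmp9 then had an unadjusted p of 0.0187 and an adjusted p of 0.901 by edgeR. Without wild-type replicate 1 all 10 were above 0 with a median of 1.44, Ltf reaching 1.76 and Lcn2 1.77. When replicate 3 of both genotypes was left out, because of its depth and base composition, 144 of 17371 genes passed edgeR's test (0.829%) and 0 of the 10 genes did. Both P95H/+ libraries left were female at 32 weeks, and the wild-type ones were a female of 54 weeks and a male of 32 weeks. Genotype thus cannot be told apart from sex and age in this fit. Of the 10, 8 had a log2 fold change below 0 in these 4 libraries, against 50.4% of all genes, with a median of -1.04 against 0.00. Mmp9 was at -1.90 (SE 1.07, adjusted p 0.564 by edgeR) and Mmp8 at -1.35 (SE 0.76, adjusted p 0.543 by edgeR).

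**Figure D2:**
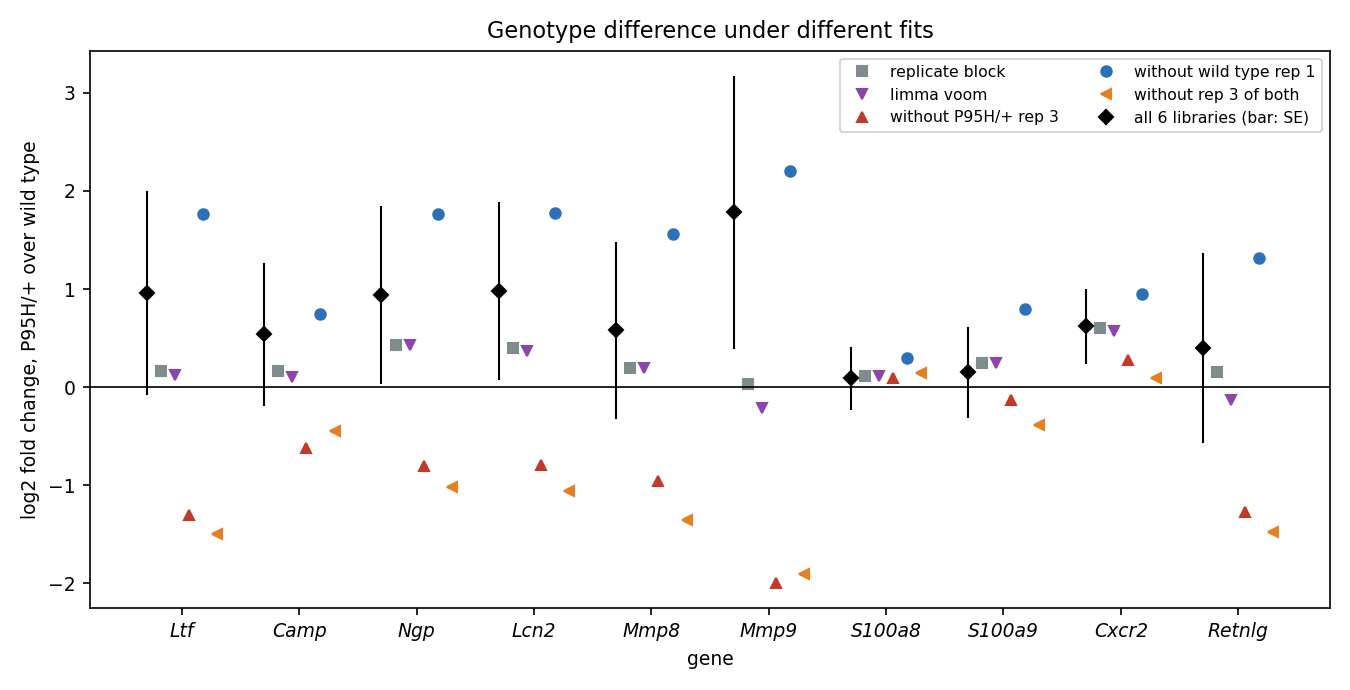
Log2 fold change of P95H/+ over wild type for each gene in the fit of all 6 libraries (black diamonds, bars give the SE) and in 5 other fits. Without P95H/+ replicate 3 the points lie below 0 for all genes but S100a8 and Cxcr2, and without wild-type replicate 1 all lie above 0.

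Libraries of the same replicate number, which are not shown to be pairs, gave opposite pictures. The replicate 1 libraries differ in age, and the replicate 2 libraries in sex. P95H/+ replicate 1 was below wild-type replicate 1 for all 10 genes, by a log2 ratio of -3.16 for Mmp9, -3.06 for Retnlg and -2.31 for Ltf, where 40.4% of tested genes were higher in P95H/+. For S100a8 these libraries were nearly level, at 170.7 against 171.2 CPM, which also holds for the order by sex below. P95H/+ replicate 2 was above wild-type replicate 2 for 7 of 10 genes (50.6% of tested genes), with ratios of 0.01 for Ltf, 0.24 for Ngp and 0.77 for Retnlg. P95H/+ replicate 3 was above wild-type replicate 3 for 9 of 10 genes (42.8% of tested genes), by 3.00 for Mmp8, 2.97 for Mmp9, 2.81 for Lcn2 and 2.63 for Ltf, and below it for S100a8 at -0.18. Taken by sex, the male P95H/+ library exceeded both male wild-type libraries for 9 of 10 genes (28.7% of tested genes), and both female P95H/+ libraries lay below the female wild-type library for 10 of 10 (45% of tested genes). Both held for 9 of the 10 genes and for 12.1% of tested genes. Where P95H/+ replicate 3 and wild-type replicate 1 are the 2 highest libraries, both follow, as each is alone in its genotype and sex. For these 9 genes the order by sex restates the order of libraries given above and is no separate result. The female wild-type library was also the only one from a mouse of 54 weeks, so sex, age and that library cannot be told apart.

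The difference of the genotype effect between sexes, male minus female, was fitted over all genes with edgeR after the values by sex were seen. It was above 0 for 10 of the 10 genes and for 47.9% of tested genes, and 0 of the 10 passed over all genes, where 1 of 17144 did (0.00583%). At an unadjusted p under 0.05 there were 9 of the 10 genes, all but S100a8, and 7.37% of tested genes. This fit restates the order by sex that prompted it and adds no independent support. The female wild-type library, from the mouse of 54 weeks, and the male P95H/+ library are alone in their groups and were assumed to vary like the others, so these p-values do not measure the spread in either group.

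Other late neutrophil genes, from a list of 44 of which 39 were tested, showed the same library order in part. P95H/+ replicate 3 and wild-type replicate 1 were the 2 highest libraries for 18 of the 39, against 4.35% of all tested genes. In the genotype test 0 of 39 passed, 33 had a log2 fold change above 0 and the median was 0.19. Cd177, a surface glycoprotein of neutrophils, stood at 8.997, 7.69 and 112 CPM in P95H/+, against 28.6, 9.19 and 23.7 in wild type. Mmp25, a membrane-anchored protease of neutrophils, stood at 0.738, 1.28 and 28.0 CPM in P95H/+, against 4.26, 0.948 and 3.98 in wild type, and Olfm4, a specific granule glycoprotein, at 4.01, 2.34 and 28.8 in P95H/+, against 9.26, 1.71 and 3.27 in wild type. Ly6g, a surface antigen of mature neutrophils, was low throughout, at 0.231, 0.796 and 5.02 CPM in P95H/+, against 3.22, 0.711 and 1.25 in wild type, in the same order.

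Not all late genes did so. Itgam, the integrin chain of Mac-1, stood at 16.8, 13.3 and 8.002 CPM in P95H/+, against 20.8, 9.86 and 9.02 in wild type, lowest in P95H/+ replicate 3. Csf3r, the receptor of granulocyte colony-stimulating factor, stood at 172, 164 and 304 CPM in P95H/+, against 149, 132 and 213 in wild type, highest in the replicate 3 libraries. By the smallest unadjusted p of the list, Ccl6, a chemokine, differed by 0.91 (SE 0.35) and G0s2 by 0.87 (SE 0.40) on the log2 scale, both at an adjusted p of 1 by edgeR. The stefin genes Stfa1, Stfa2, Stfa2l1, Stfa3 and BC100530 lay below the filter, at no more than 1.02 CPM in any P95H/+ library and 1.09 CPM in any wild-type library.

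**Figure D3:**
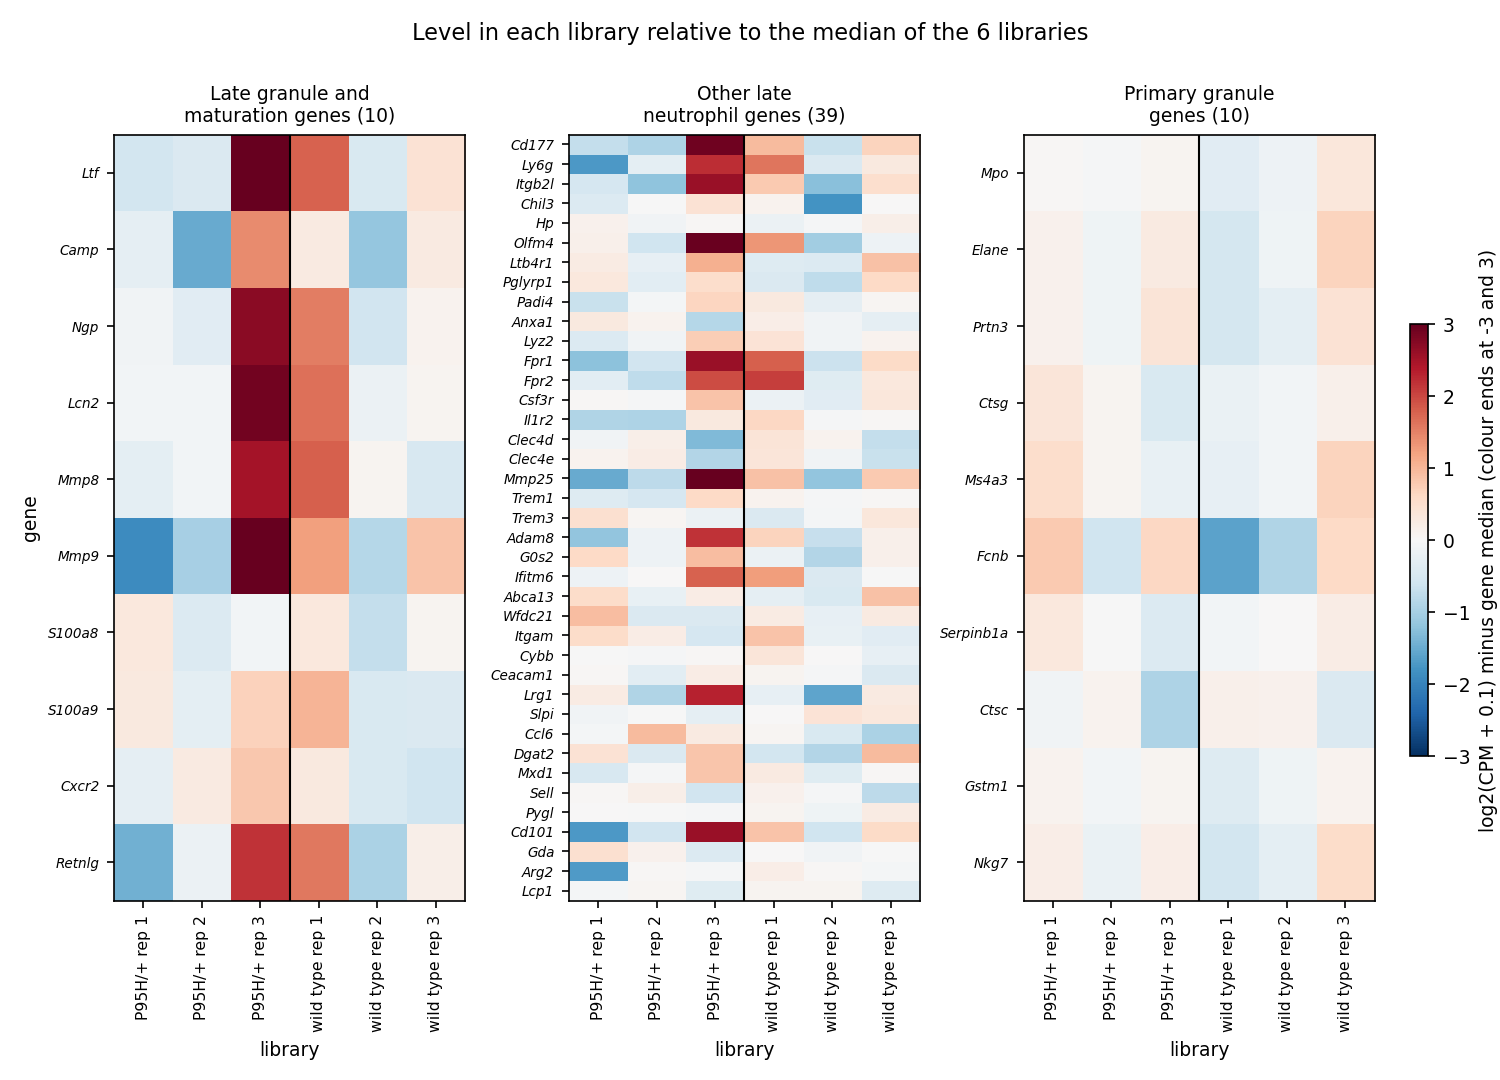
Level of each gene in each library as log2(CPM + 0.1) minus the median of the gene over the 6 libraries, for the 10 genes, 39 other late neutrophil genes and 10 primary granule genes, with P95H/+ libraries left of the black line. Red columns at P95H/+ replicate 3 and wild-type replicate 1 mark most of the 10 genes and part of the other late genes. The primary granule genes do not share this order, and wild-type replicate 1 is the lowest library for most of them, Mpo, Elane and Fcnb included.

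The primary granule genes, which precede the late genes in maturation, had another order. For 0 of the 10 primary granule genes were P95H/+ replicate 3 and wild-type replicate 1 the 2 highest libraries. This held for 4.35% of all tested genes, so 0 of 10 is near the background. Mpo, the myeloperoxidase gene, stood at 5216, 4924 and 5338 CPM in P95H/+, against 4013, 4568 and 6367 in wild type, and Elane, neutrophil elastase, at 1613, 1357 and 1798 in P95H/+, against 1024, 1343 and 2337 in wild type. Wild-type replicate 1 was lowest for both. Summed over each list, the 10 late genes came to 4.53%, 3.81% and 16.9% of the primary granule genes in P95H/+, and to 13.1%, 3.60% and 3.87% in wild type. The primary granule sum was itself lowest in wild-type replicate 1, at 7486 CPM, which raises the percentage there. In the genotype test 0 of 10 primary granule genes passed, 9 were above 0 and the median log2 fold change was 0.14, with Fcnb, a ficolin, at 0.82 (SE 0.60) and Gstm1, a glutathione transferase, at 0.24 (SE 0.20), both at an adjusted p of 1 by edgeR.

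**Figure D4:**
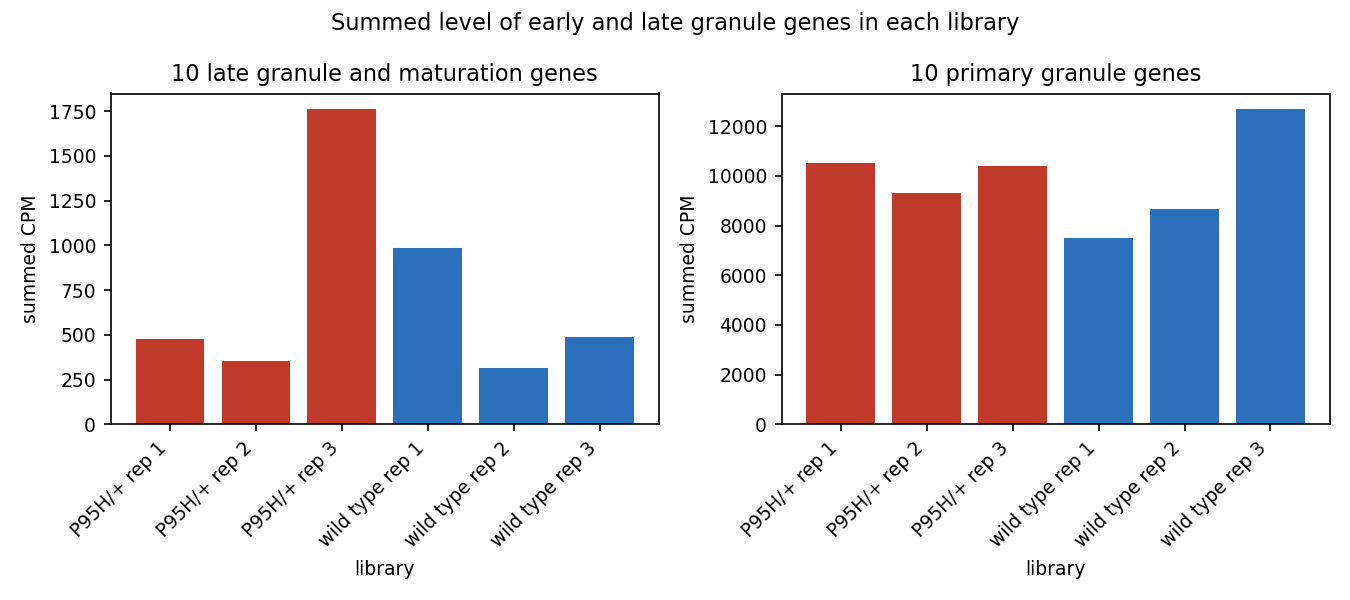
Summed CPM of the 10 late granule and maturation genes (left panel) and of 10 primary granule genes (right panel) in each library, with P95H/+ in red and wild type in blue. The late genes reach 1761 CPM in P95H/+ replicate 3 and 984 CPM in wild-type replicate 1, where the primary granule genes sum to 10395.0 and 7486 CPM in the same libraries.

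Regulators of granulocyte maturation were measured beside them. Cebpe, which encodes C/EBP epsilon, stood at 44.8, 27.2 and 76.5 CPM in P95H/+, against 29.7, 32.7 and 67.0 in wild type, highest in the replicate 3 libraries and not in wild-type replicate 1. Of 10 granulocyte transcription factors 0 passed, 8 were above 0 and the median log2 fold change was 0.24. Cebpb was at 0.87 (SE 0.52) and Spi1, which encodes PU.1, at 0.37 (SE 0.27), both at an adjusted p of 1 by edgeR. Without replicate 3 of both genotypes 1 factor passed, Klf4, lower in P95H/+ by 0.54 on the log2 scale (SE 0.10, adjusted p 0.0440 by edgeR). That fit called 0.829% of all genes, and in it genotype cannot be told apart from sex and age. With all 6 libraries Klf4 was at -0.00 (SE 0.35), where the left-out P95H/+ library held 139 CPM, against 67.3 for the left-out wild-type library. Granule release and NADPH oxidase genes had 0 of 10 passing and a median of 0.09, with Ncf4 at 0.17 (SE 0.20) and Unc13d at 0.31 (SE 0.38).

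Ligands, receptors and inhibitors of these proteins gave 0 passing genes in each list. The Cxcr2 ligand Cxcl2 stood at 14.6, 27.8 and 9.21 CPM in P95H/+, against 34.1, 27.8 and 11.4 in wild type, and Ppbp, the other ligand tested, had a log2 fold change of 0.10 (SE 0.45). Cxcr4, the receptor that holds neutrophils in the marrow, stood at 170, 178 and 142 CPM in P95H/+, against 181, 188 and 291 in wild type. On the log2 scale Cxcr4 differed by -0.35 (SE 0.23) and Ccr1 by 0.60 (SE 0.40). Thus Cxcr4 was lowest in P95H/+ replicate 3, where Cxcr2 was highest. Among receptors of S100a8 and S100a9, Ager was at 0.63 (SE 0.32) and Cd36 at -0.31 (SE 0.25). The Lcn2 receptor Slc22a17 was at -0.32 (SE 0.33), and the formyl peptide receptor Fpr2, a receptor of Camp, at -0.30 (SE 0.93). Fpr2 shared the order of the granule genes, at 0.692, 0.486 and 3.72 CPM in P95H/+, against 4.09, 0.663 and 1.13 in wild type.

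Of the metalloproteinase inhibitors 3 were tested and all were below 0, Timp3 at -0.79 (SE 0.50) and Reck at -0.22 (SE 0.25) among them. Most of the tested Mmp and S100 relatives did not share the order of the 10 genes. Of 10 other Mmp genes tested, P95H/+ replicate 3 and wild-type replicate 1 were the 2 highest libraries for 1, Mmp25. Of 5 other S100 genes tested this held for 1, S100a6. Over all tested genes the share was 4.35%, and lists this small cannot be set apart from it. S100a10 stood at 65.8, 76.0 and 29.5 CPM in P95H/+, against 75.0, 76.9 and 53.7 in wild type, lowest in P95H/+ replicate 3. Mmp15 was at -1.05 (SE 0.31) and Mmp23 at -0.58 (SE 0.25), at unadjusted p of 0.0103 and 0.0475 and adjusted p of 1 by edgeR, and S100a1 and S100a13 were at -0.38 (SE 0.23) and -0.41 (SE 0.32). Lbp and Trf, which encode proteins that bind lipopolysaccharide and iron, were at 0.15 (SE 0.25) and -0.14 (SE 0.28). The resistin relatives Retn and Retnlb lay below the filter.

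Markers of other cells moved with the same libraries in part, and their part in the result was not tested. Monocyte markers summed to 1940, 2162 and 1419 CPM in P95H/+, against 1695, 2117 and 1848 in wild type, lowest in P95H/+ replicate 3. Erythroid markers summed to 610.3, 552 and 1514 CPM in P95H/+, against 629, 846 and 1054 in wild type, highest in P95H/+ replicate 3 but low in wild-type replicate 1. B cell markers summed to 67.0, 64.2 and 148 CPM in P95H/+, against 91.1, 126 and 79.9 in wild type. T and NK cell markers summed to 3.74, 2.83 and 5.12 CPM in P95H/+, against 12.9, 4.22 and 3.86 in wild type, highest in the libraries that held most of the late granule transcripts, with 3 of 7 tested and Cd3g at 0 counts in P95H/+ replicate 1, which allows up to 3 counts or 0.138 CPM. Megakaryocyte markers summed to 128, 180 and 279 CPM in P95H/+, against 191, 144 and 217 in wild type. Eosinophil, mast cell and basophil markers summed to 542, 644 and 639 CPM in P95H/+, against 556, 484 and 978 in wild type. Stem and multipotent progenitor markers summed to 1083, 1336 and 1137 CPM in P95H/+, against 1455, 1306 and 1157 in wild type. In each of these 7 lists 0 genes passed with all 6 libraries.

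The genes of smallest unadjusted p in those lists had log2 fold changes of -0.36 for Adgre1 and -0.25 for Cd14 (monocyte), 0.73 for Klf1 and 0.57 for Gata1 (erythroid), 0.64 for Gp9 and 0.62 for Gp1bb (megakaryocyte), and -0.27 for Cd79b (B cell). They were -1.82 for Ncr1 and -0.54 for Cd3d (T and NK cell), -0.66 for Cpa3 and 0.31 for Ms4a2 (mast cell and basophil), and -0.52 for Procr and -0.37 for Flt3 (stem cell). The fit without replicate 3 of both genotypes called 0.829% of all genes and cannot tell genotype from sex and age. In it the eosinophil granule genes Epx, Prg2 and Prg3 passed, higher in P95H/+ by log2 fold changes of 1.20, 0.96 and 1.03 (adjusted p 0.00128, 0.00147 and 0.0325 by edgeR). With all 6 libraries their log2 fold changes were -0.25, -0.05 and 0.12, with wild-type replicate 3, at 342.5, 368 and 19.9 CPM, the highest library for each.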

How the data were processed

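Total RNA of the sorted cells was depleted of ribosomal RNA and sequenced as paired reads from stranded libraries, per the labels. The submitters' processing notes name STAR 2.5.3a, Subread 1.5.1 with featureCounts, Picard 1.96, Trim Galore, cutadapt, limma, edgeR and mm10, with no role or setting. Whether counting used strand is not given in the sources used here. The authors deposited raw counts for 26027 genes and CPM tables (counts scaled to 1000000). The deposited CPM equalled count over library total within 0.0005, or, in the table of 15466 genes, count over the total of those genes.

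CPM in the text are counts over the library total. The comparison of genotypes used edgeR 4.0.16 under R 4.3.3 (TMM, filterByExpr, robust quasi-likelihood F test, Benjamini-Hochberg over all tested genes, threshold 0.05). DESeq2 1.42.0, limma 3.58.1 voom, RLE scaling, total counts, no filter, sex in the model and left-out libraries were alternatives. The fit was tested on simulated counts. The smallest count of the 10 genes, 88 for Mmp9 in P95H/+ replicate 1, has an exact Poisson 95% interval of 70.6 to 108, which covers counting error only, as reads carry no molecular identifiers. Replicate numbers come from the labels. Deviations from genotype means correlated at 0.372, 0.348 and 0.613 for numbers 1, 2 and 3, above the 0.1 set for pairing, so the block was fitted. Crossed, wild-type replicate 1 with P95H/+ replicate 2 gave 0.463, and P95H/+ replicate 1 with wild-type replicate 2 gave 0.386. Both exceed the values of the matched numbers 1 and 2, so those numbers are not shown to be pairs. Genes, lists and tests were chosen with earlier results of these data known. All 10 genes are named, with the 2 genes of smallest p in each list, genes that pass, and Kit, Ly6g, Itgam, Cebpe, Mpo, Elane, Cxcr4, Csf3r and S100a10. Cd177, Mmp25, Olfm4, S100a6, Epx, Prg2, Prg3, Klf4 and genes of the closing section were named after their values were seen. Where a symbol named 2 rows (Itgam), the row with more counts was used. Coordinates, exon lengths and GC come from GENCODE M21. Mc4r, A2m, Retnla, S100a16, Mmp3, Mmp10 and Mmp12, also listed, were not used here. The other B cell marker that the rule for named genes selects is not reported here.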

Additional observations from a re-analysis of the deposited data

How the results depend on the processing

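All 10 log2 fold changes kept their direction under RLE scaling, total counts alone, no filter, DESeq2, the replicate block and a sex term. Some of them lay near 0. S100a8 was at 0.002 (SE 0.32) with total counts alone and at 0.01 (SE 0.30) with the sex term. Mmp9 was at 0.03 (SE 1.99) with the block. Under none of the alternatives run did any of the 10 pass, but DESeq2 gave no p-value for Lcn2 and Mmp9. In the fit with the replicate block 1 gene passed over all genes, against 0 without it, and the block changed no call among the 10. DESeq2 called 7 genes, and the fit without replicate 3 of both genotypes called 144, 32 higher and 112 lower in P95H/+. Leaving out 1 library at a time called 0 to 1 genes, the 1 call coming without wild-type replicate 3. Without replicate 3 of both genotypes the direction turned for Ltf (-1.50), Camp (-0.45), Ngp (-1.02), Lcn2 (-1.06), Mmp8 (-1.35), Mmp9 (-1.90), S100a9 (-0.39) and Retnlg (-1.48). With limma voom, which averages log values, it turned for Mmp9 (-0.21) and Retnlg (-0.13). Leaving out each library in turn gave ranges of -1.30 to 1.76 for Ltf, -0.62 to 0.99 for Camp, -0.80 to 1.76 for Ngp, -0.79 to 1.77 for Lcn2, -0.96 to 1.56 for Mmp8, -1.99 to 2.32 for Mmp9, -0.15 to 0.30 for S100a8, -0.13 to 0.80 for S100a9, -1.27 to 1.32 for Retnlg and 0.28 to 0.95 for Cxcr2, which alone of the 10 stayed above 0. The turns fell on P95H/+ replicate 3 for 8 genes, on wild-type replicate 2 for S100a8, S100a9 and Retnlg, on P95H/+ replicate 1 for S100a8 and on wild-type replicate 3 for S100a9, and the cause was not tested. Scaling by TMM library size moved the mean CPM of each gene, and the share of counts of the 10 together, by less than 1 SD in each genotype.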

Other observations

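Genes beyond the 10 shared the library order of the late granule genes. Of 11076 tested genes with a mean of at least 5 CPM, those whose 2 highest libraries were P95H/+ replicate 3 and wild-type replicate 1 were ranked by the lower of these levels over the highest of the other 4 libraries, a ranking made after the values were seen. Mmp8, Lcn2, Ngp, Retnlg and Ltf took ranks 2 to 6, at ratios of 3.30 for Mmp8 and 2.97 for Lcn2, while S100a9 ranked 30, Mmp9 32, Cxcr2 295 and Camp 336. Rank 1 was held by Hist1h4m, a histone H4 gene with close paralogs, at 37.4 CPM in P95H/+ replicate 3, 75.6 CPM in wild-type replicate 1 and at most 2.67 CPM in the other 4. Ranks 7 to 10 were Il1b, the cytokine interleukin 1 beta, Ifitm6, Olfm4 and Plbd1. Il1b stood at 2.40, 3.89 and 13.8 CPM in P95H/+, against 10.6, 3.36 and 4.39 CPM in wild type, and Plbd1, a phospholipase B-like gene, at 15.8, 12.4 and 36.6 CPM in P95H/+, against 29.1, 14.4 and 9.80 CPM in wild type. Fn1, the fibronectin gene, ranked 16 at 20.3, 31.6 and 162 CPM in P95H/+, against 54.1, 32.5 and 33.1 CPM in wild type.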
